A study of Caenorhabditis elegans with 18 samples.

Results

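The inputs of a pair of C. elegans strains, 1xFLAG::WAGO-3 and 1xFLAG::WAGO-1, were compared to see how far the total small RNAs of the animals differ between them and at which loci. Members were defined by their labels, with earlier results of these data known. They are the 3 input libraries of the WAGO-3 strain and the 3 input libraries of the WAGO-1 strain, 6 of the 18 libraries of the series. Each strain carried a FLAG epitope tag on its Argonaute, and neither carried the dpf-3 deletion that the remaining strain carries. Both were grown at 15 °C on peptone-rich plates with NA22 bacteria and collected whole as staged L4 larvae, the last larval stage. RNA for an input was purified from the protein extract before the immunoprecipitation (IP), enriched for small RNAs and treated with a 5′ polyphosphatase. The series studies proteolytic processing of Argonautes, for which the inputs serve as the reference of each IP. No strain without a tag was analysed here, so the tagged protein, the strain and its culture cannot be told apart, and the labels do not say whether replicates A, B and C were separate cultures.

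Nematodes amplify silencing with 22G RNAs, short secondary small RNAs that start with a guanine and are made by RNA-dependent RNA polymerases along a target transcript. WAGO-1 and WAGO-3 are worm-specific Argonautes of the germ line that bind such RNAs and silence genes, transposons and repeats. The polyphosphatase step allows these 5′-triphosphorylated RNAs to enter a library. A value below is therefore a level of small RNAs counted under a gene or interval, not a level of its messenger RNA, and in whole animals fewer cells of a type and less RNA per cell cannot be told apart.

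Each input held 209731 to 517278 counts in features, the features being 20134 genes and 55259 unnamed stranded genomic intervals. A further 68.6% to 76.6% of the counted reads fell in no feature. The 3323 features with enough counts for a test (2745 genes and 578 intervals) held 87.5% of the feature counts. Levels are counts scaled to 1000000 feature counts per library (CPM), and log2 folds are WAGO-3 over WAGO-1 on edgeR's TMM scale, with their standard error (SE).

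The inputs of the strains differed at 1229 of the 3323 features tested, 37% of them, with 531 higher in WAGO-3 (16%) and 698 lower (21%) at an edgeR quasi-likelihood adjusted p under 0.05. Of these, 285 were at least 2-fold higher and 514 at least 2-fold lower. The 3 libraries of one strain did not overlap with the 3 of the other at 1162 of the 1229 called features (94.5%), and at 47% of all features tested. Of the genes 32.1% were called, in both directions about equally, 476 higher (17.3%) and 405 lower (14.8%). Of the unnamed intervals 60.2% were called, with 55 higher (9.52%) and 293 lower (50.7%). Of the features tested, 541 stood over the filter of 37.9 CPM in all 3 WAGO-1 libraries but not in all 3 of WAGO-3, and 534 the other way round, and such features tend to differ by construction. Among the 1838 that stood over it in all 6 libraries, 322 were higher and 323 lower. The scaling sets where no difference lies. Scaling by all counted reads gave 668 higher and 553 lower features, with a median log2 fold over features of 0.25, against 0.04 on the TMM scale and 0.16 with total feature counts.

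**Figure D1:**
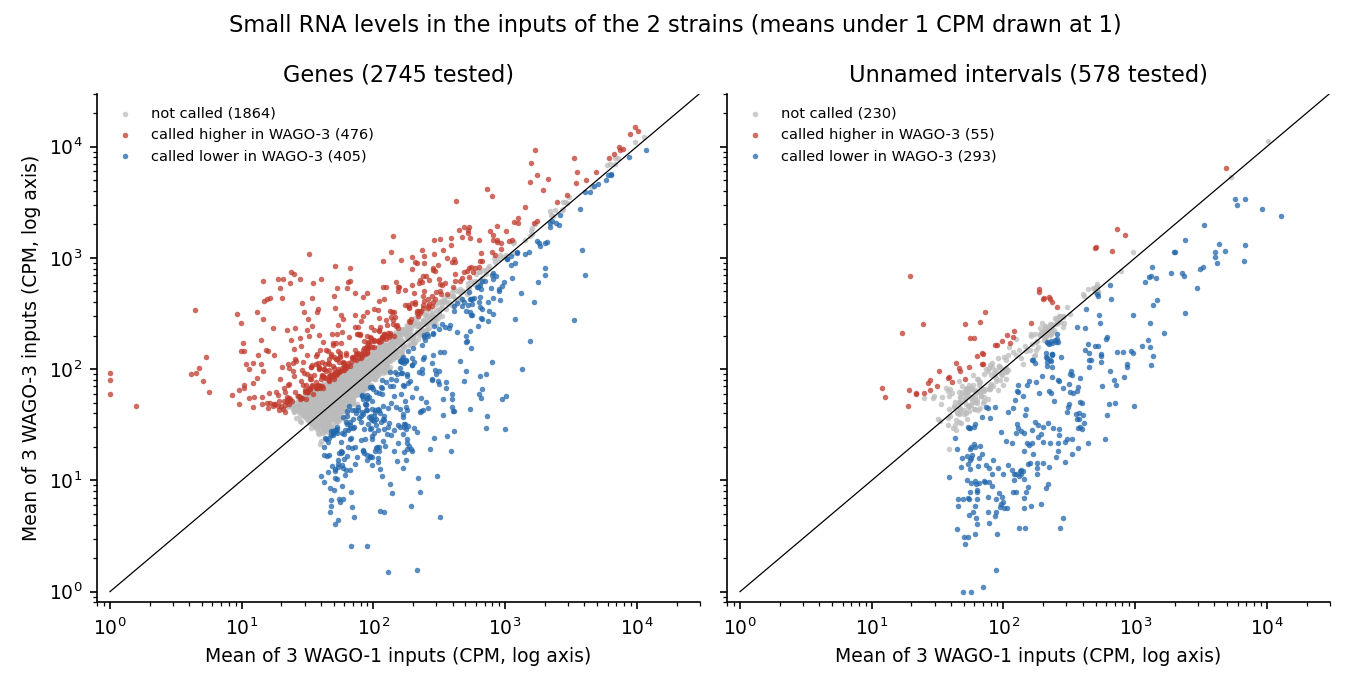
Each point is a feature, with the mean of the 3 WAGO-1 inputs on the horizontal axis and the mean of the 3 WAGO-3 inputs on the vertical axis, both in CPM on log axes, for 2745 genes and 578 unnamed intervals. Called features are red (higher in WAGO-3, 531) or blue (lower, 698), and the intervals lie mostly below the line of equal levels (293 lower, 55 higher).

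Replicates of one strain differed by little more than counting noise. A chi-square of counts over features gave 1.04 to 1.299 per degree of freedom between input replicates of a strain, against 19.9 between the summed inputs of the 2 strains. This measure grows with depth, and the sums are deeper than single libraries, so the size of the gap between these values is overstated. Every replicate pair still differed by more than sampling noise, the closest being WAGO-1 replicates B and C (p = 0.0104, chi-square test over 7463 features), so each library was counted as a sample. The common biological coefficient of variation in the fit was 5.01%. The p-values measure only the spread between these samples, which may be technical.

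Small RNAs of dpf-3, which encodes a dipeptidyl peptidase, gave no call. The WAGO-1 inputs gave 52.4, 30.9 and 33.7 CPM and the WAGO-3 inputs 70.6, 32.7 and 49.5 CPM (log2 fold 0.31 ± 0.34 SE, adjusted p = 0.537). Small RNAs of ppw-2, the gene of WAGO-3, stood at 210, 275 and 304 CPM against 278, 272 and 311 CPM (-0.04 ± 0.13, adjusted p = 0.853). Those of wago-1 were 19.1, 88.9 and 78.7 CPM in WAGO-1 and 151, 170 and 94.6 CPM in WAGO-3, higher in each WAGO-3 library (0.87 ± 0.25, adjusted p = 0.00248 in edgeR, while DESeq2 gave no call, with adjusted p = 0.247). These reads do not measure the proteins or the tags.

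Small RNAs of 476 genes were higher in WAGO-3. Ranked by the difference in mean CPM, which grows with a gene's length and total, they were led by sqst-1 (chromosome IV, 12034282 to 12036891, build ce11), which encodes the worm homologue of the autophagy receptor p62. Its small RNAs stood at 1707, 1668 and 1667 CPM in the WAGO-1 inputs and at 9313, 9376 and 9254 CPM in the WAGO-3 inputs, a log2 fold of 2.35 ± 0.06 (adjusted p = 5.65e-55). The libraries of each strain lay within a narrow band and the bands were far apart. The 3 inputs of the 1xFLAG::WAGO-1 strain that also carries the dpf-3 deletion gave 747, 699 and 697 CPM. At saeg-2 (chromosome III), named as a suppressor of the activated protein kinase G EGL-4, the values were 1569, 1547 and 1583 CPM against 7171, 6772 and 7263 CPM (2.06 ± 0.06). Small RNAs of rnh-1.3, of the ribonuclease H family, were 3385, 3397 and 3286 CPM against 7679, 8358 and 7673 CPM (1.12 ± 0.05). At zip-2, a bZIP transcription factor of the pathogen response, they were 1535, 1564 and 1532 CPM against 4671, 4773 and 4904 CPM (1.51 ± 0.06). All 4 genes had no overlap between strains, and their replicates differed far less than the strains.

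A second group of genes had few small RNAs in the WAGO-1 input and many in WAGO-3. At ckk-1 (chromosome III, 5635479 to 5654564), a calcium/calmodulin-dependent protein kinase kinase, WAGO-1 gave 38.1, 36.7 and 22.5 CPM and WAGO-3 1064, 1057 and 1121 CPM, a log2 fold of 4.93 ± 0.15. At arl-13, a small GTPase of cilia, the levels were 23.8, 9.67 and 28.1 CPM against 650, 595 and 680 CPM (4.96 ± 0.20). C30G12.1 rose from 9.54, 17.4 and 16.9 CPM to 598, 615 and 648 CPM (5.15 ± 0.20), and Y54F10AM.11 from 0, 7.73 and 5.62 CPM to 320, 340 and 365 CPM (5.73 ± 0.31). Replicates of WAGO-3 lay close to each other at these genes, while the low WAGO-1 levels rested on few counts. The ranking by fold took only genes without overlap between strains, so their lack of overlap is no separate result. R102.4 (4.89 ± 0.29) and Y69A2AR.31 (4.87 ± 0.18) were of the same size. A few genes were at or near zero in WAGO-1. C55C3.7 had 0 counts in the WAGO-1 inputs and 44 in WAGO-3 (56.5, 58.9 and 63 CPM), at least 21.5-fold higher against a floor of 3 counts over the group. F53G2.2 had 1 count against 68, a ratio of 99.5 with an exact 95% interval of 17.3 to 3986, and mltn-3 had 1 against 58, a ratio of 84.8 (14.6 to 3408). These intervals cover counting error only. The dpf-3 deletion inputs were shallower, with 88761 to 121874 feature counts each. In them ckk-1 stood at 43.4, 56.3 and 65.6 CPM (18 counts in all) and C30G12.1 at 17.4, 0 and 16.4 CPM (4 counts in all).

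Genes outside the naming rule that were picked after their values were seen, for their small p-values, showed like gaps. The leucine-rich repeat membrane protein gene pan-1 had 415, 402 and 458 CPM of small RNAs in WAGO-1 and 3404, 3114 and 3215 CPM in WAGO-3 (2.81 ± 0.08). The Pbx-type homeobox gene ceh-20 had 787, 781 and 812 CPM against 3738, 3451 and 3656 CPM (2.07 ± 0.07). Y37D8A.6 had 162, 131 and 132 CPM against 1474, 1668 and 1590 CPM (3.40 ± 0.10).

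**Figure D2:**
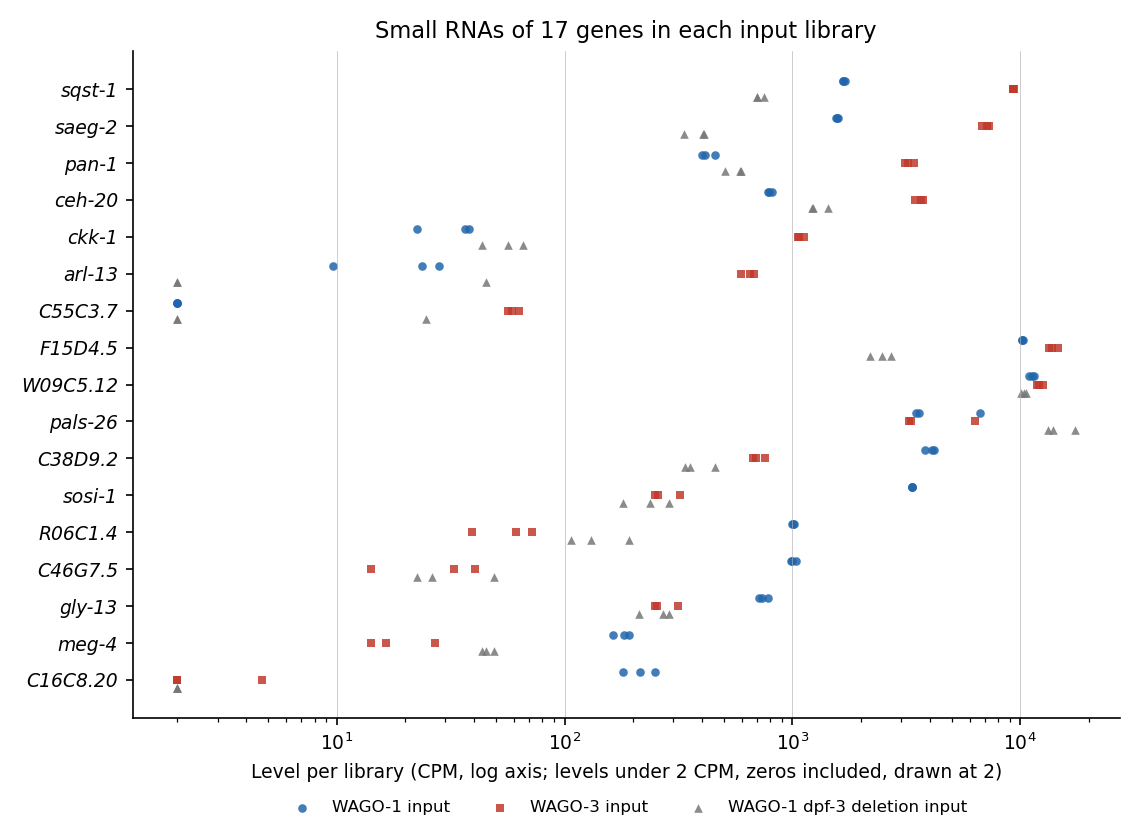
Small RNA level (CPM, log axis) of 17 genes in each of the 3 WAGO-1 inputs (blue circles), 3 WAGO-3 inputs (red squares) and 3 inputs of WAGO-1 with the dpf-3 deletion (grey triangles). Replicates cluster within a strain at most genes, as at sqst-1 (1667 to 1707 against 9254 to 9376 CPM), while pals-26 has 1 high library in each of the WAGO-1 and WAGO-3 strains (6680 and 6300 CPM).

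Small RNAs of 405 genes were lower in WAGO-3. By fold they were led by C16C8.20 on chromosome II, with 215, 180 and 250 CPM in WAGO-1 and 4.71, 0 and 0 CPM in WAGO-3. That is 227 counts against 1, a ratio of 155 with an exact 95% interval of 27.6 to 6156. At erp-44.2, of the family of the endoplasmic reticulum protein ERp44, WAGO-1 had 100, 147 and 138 CPM and WAGO-3 0, 0 and 4.5 CPM, 146 counts against 1 (ratio 99.8, 17.6 to 3969). In the dpf-3 deletion inputs erp-44.2 stood at 86.9, 113 and 73.8 CPM, and C16C8.20 at 0 CPM in all 3. In these shallower inputs 3 counts over the group correspond to 9.21 CPM. C46G7.5 fell from 1035, 986 and 992 CPM to 14.1, 32.7 and 40.5 CPM (-5.17 ± 0.16, adjusted p = 9.55e-46), with no overlap, which the ranking by fold required. It stood at 26.1, 22.5 and 49.2 CPM in the deletion inputs. Y102A5C.36 had 744, 779 and 635 CPM against 28.3, 29.4 and 31.5 CPM (-4.70 ± 0.18), and F23B12.4 had 339 counts against 3 (ratio 77.2, 26.2 to 376).

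At one locus, small RNAs of overlapping genes differed in opposite directions. The gene sosi-1 (chromosome I, 4460146 to 4462704) lies within the annotated span of eri-6 (4457375 to 4469458), a helicase gene of the RNA interference pathway. Small RNAs of sosi-1 stood at 3357, 3348 and 3334 CPM in WAGO-1 and at 250, 258 and 320 CPM in WAGO-3 (-3.73 ± 0.09, adjusted p = 6.84e-56). Those of eri-6 stood at 7562, 7277 and 7207 CPM against 9737, 9618 and 10208 CPM (0.30 ± 0.05, adjusted p = 8.69e-08). Thus one was far lower and the other slightly higher, in each case with no overlap between strains. The strand setting of the counting is not given in the sources used here, so reads of the overlapping genes may not be fully separated.

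Loci known in C. elegans as strong targets of 22G RNAs were called in both directions. Of 24 such loci in the table, 21 were tested, 4 were higher and 11 lower in WAGO-3, against 16% higher and 21% lower over all features. The median log2 fold was -0.29 against 0.04 over all features. Their summed share of the feature counts was 6.31%, 6.48% and 6.45% in WAGO-1 and 6.26%, 6.58% and 6.43% in WAGO-3, and these shares overlapped. R06C1.4 went from 1016, 1009 and 998 CPM to 61.2, 39.3 and 72 CPM (-4.29 ± 0.14), the strongest fall of the list. C38D9.2 (chromosome V) went from 4191, 4110 and 3817 CPM to 692, 674 and 757 CPM (-2.64 ± 0.07), with 356, 338 and 459 CPM in the deletion inputs. Against these, Y20F4.4 (chromosome I) was higher, with 744, 750 and 683 CPM in WAGO-1 and 3941, 4393 and 4053 CPM in WAGO-3 (2.39 ± 0.07). F15D4.5, with 10251, 10130 and 10201 CPM against 13400, 14633 and 13766 CPM, was also higher but by little (0.33 ± 0.05). Y17D7B.4 had 11391, 12061 and 11530 CPM against 8969, 9912 and 9159 CPM (-0.44 ± 0.05), a small difference in which the strains still did not overlap.

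Small RNAs of genes on the X chromosome were mostly lower in WAGO-3. Of 147 X genes tested, 92 were lower (62.6%) and 9 higher (6.12%), with a median log2 fold of -0.999. On the autosomes, 273 of 2512 genes were lower (10.9%) and 457 higher (18.2%), with a median of 0.14. Single autosomes ranged from 9.44% lower on chromosome III to 15.7% on chromosome V. Such genes lay along the whole X, with 38 of 54 lower in the left part of the chromosome, 18 of 33 in the middle and 36 of 60 in the right part, each part being a stretch of equal length. In each of 4 bins of mean level with equal numbers of genes, 51.7% to 71.8% of the X genes were lower, against 5.23% to 22.8% of the autosomal genes. Of the X genes, 73 stood over the filter in all 3 WAGO-1 libraries but not in all 3 WAGO-3 libraries. Among the 56 over it in all 6 libraries, 27 were lower (48.2%), against 152 of 1391 autosomal genes (10.9%). Without any filter, the 2673 X genes took 4.62%, 4.63% and 4.55% of the feature counts in the WAGO-1 inputs and 3.62%, 3.73% and 3.65% in WAGO-3. The strains did not overlap in this share, and the exact two-sided permutation test gave p = 0.1, the smallest that 3 against 3 libraries allow. In the dpf-3 deletion inputs the share was 2.52%, 2.58% and 2.47%. Neighbouring genes are not independent, and the counts per chromosome were not tested.

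The X genes lower in WAGO-3 included meg-4, which encodes a germ granule protein, with 191, 182 and 163 CPM in WAGO-1 and 14.1, 16.4 and 27 CPM in WAGO-3 (-3.32 ± 0.31). The linker histone gene hil-3 had 782, 787 and 852 CPM against 297, 327 and 324 CPM (-1.47 ± 0.10). Chosen after their values were seen, gly-13, an N-acetylglucosaminyltransferase of glycan synthesis, had 710, 779 and 736 CPM against 250, 255 and 315 CPM (-1.58 ± 0.11), and the prion-like domain gene pqn-65 had 291, 325 and 405 CPM against 61.2, 36 and 63 CPM (-2.85 ± 0.20). Small RNAs of lnp-1, the worm lunapark gene of the endoplasmic reticulum, fell from 134, 118 and 160 CPM to 14.1, 0 and 9.01 CPM (-4.35 ± 0.40). Those of odr-1, a guanylyl cyclase of olfactory neurons, stood at 262, 284 and 284 CPM against 98.9, 131 and 108 CPM (-1.40 ± 0.17). None of these 6 genes had overlapping strains. In the other direction, F59C12.4 had 2189, 2119 and 2044 CPM against 4920, 5473 and 5016 CPM (1.17 ± 0.06), and without it the X genes took 4.34% to 4.41% of the counts in WAGO-1 and 3.12% to 3.18% in WAGO-3. The linker histone gene his-24, also on the X, was higher as well (0.33 ± 0.06).

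**Figure D3:**
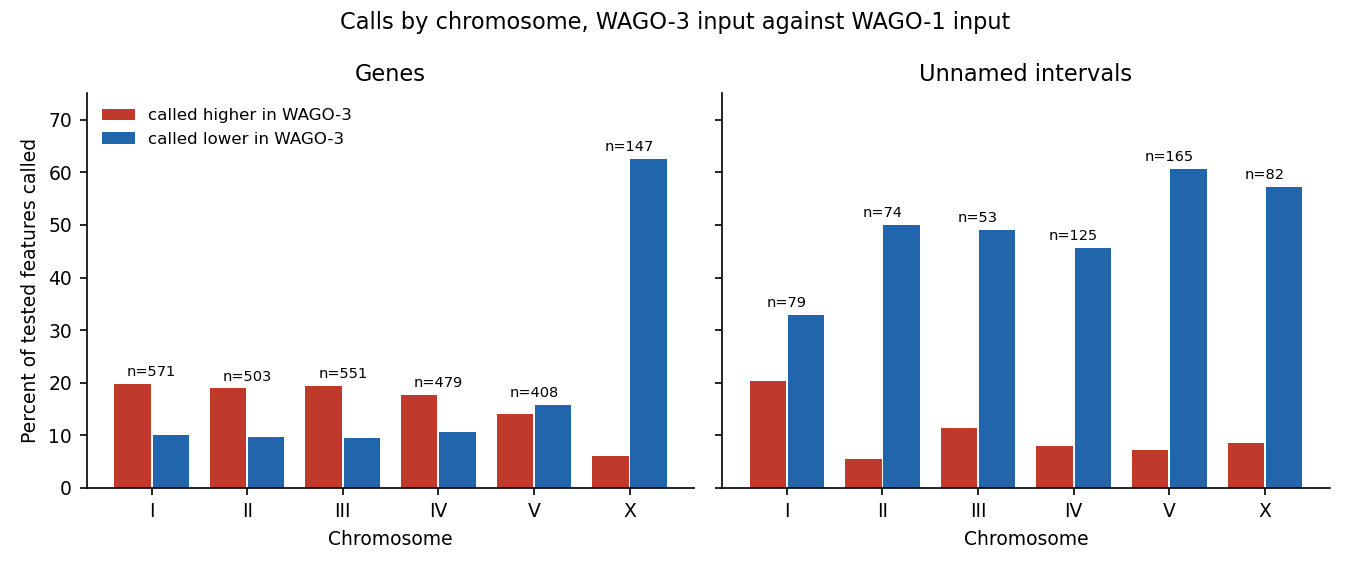
Percent of tested genes (left) and of tested unnamed intervals (right) on each chromosome that were called higher (red) or lower (blue) in the WAGO-3 input, with the number tested above the bars. Genes on the X stand apart with 62.6% lower, while for intervals every chromosome has more lower than higher calls.

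Unnamed intervals took a smaller share of the WAGO-3 inputs. As a class they held 26.7%, 26.4% and 26.4% of the feature counts in the WAGO-1 inputs and 14.05%, 14.2% and 14.4% in WAGO-3, with no overlap (exact two-sided permutation p = 0.1, the smallest possible), and 8.25% to 8.36% in the dpf-3 deletion inputs. Intervals on chromosome V alone went from a mean of 12.96% to 6.26%. Lower calls exceeded higher calls on every chromosome, from 26 against 16 on chromosome I to 100 against 12 on chromosome V. Of the 578 intervals, 190 stood over the filter in all 3 WAGO-1 libraries but not all 3 of WAGO-3. Among the 336 over it in all 6 libraries, 126 were lower (37.5%) and 35 higher (10.4%). The share of lower calls was 52.3% among intervals that overlap a protein-coding gene, 48.6% among 74 that overlap a pseudogene and 50.9% among 275 that overlap no annotated gene. Of the remaining 11, which overlap a gene of another kind, 3 were lower (27.3%, median log2 fold -0.23).

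Ranked by the difference in mean CPM, the intervals were led by one on the minus strand of chromosome V, 17137383 to 17141676. It stood at 13036, 12749 and 12787 CPM in WAGO-1 and at 2340, 2434 and 2351 CPM in WAGO-3, a log2 fold of -2.55 ± 0.05 (adjusted p = 1.25e-58). The neighbouring interval on the same strand, 17132108 to 17137381, ends just before it. There the WAGO-1 inputs gave 10471, 10045 and 10085 CPM and the WAGO-3 inputs 10773, 11701 and 11203 CPM, a log2 fold of 0.02 ± 0.05 (adjusted p = 0.795). In CPM these libraries do not overlap, but TMM scaling, which centres the folds over all features, removes the gap, and over the alternatives tried the log2 fold ran from -0.01 to 0.25, with a call in 2 of 16. One side of this boundary thus differed more than 5-fold in CPM between strains and the other gave no call. In the dpf-3 deletion inputs both were low, with 712, 789 and 919 CPM in the first and 843, 879 and 1017 CPM in the second. Other intervals with large differences were on chromosome IV, 913372 to 921243 on the plus strand, with 9541, 8875 and 8950 CPM against 2740, 2856 and 2652 CPM (-1.85 ± 0.05), and on chromosome III, 13230129 to 13242682 on the minus strand, with 6742, 6571 and 6794 CPM against 866, 903 and 1013 CPM (-2.97 ± 0.06). The 8 intervals among the 10 features with the largest falls in mean CPM had log2 folds of -2.97 to -1.12. The interval on chromosome V from 791402 to 797900, minus strand, had 7061, 6871 and 6600 CPM against 1252, 1246 and 1432 CPM (-2.51 ± 0.06). At each of these the strains did not overlap.

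Of the 578 intervals tested, 2 had no count in WAGO-3. The one on chromosome IV from 1336824 to 1337352, minus strand, had 57 counts in WAGO-1 and 0 in WAGO-3, at least 12.99-fold lower, and the one on the X from 253811 to 254326, minus strand, had 52 against 0, at least 11.8-fold lower, both against a floor of 3 counts over the group. The interval with the largest fold in the other direction, on chromosome IV from 2894268 to 2894892, minus strand, overlaps Y54G2A.19 and went from 14.3, 21.3 and 22.5 CPM to 654, 743 and 662 CPM (4.95 ± 0.19).

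The share of lower calls varied with interval length. Among intervals of over 500 and up to 1000 bases, 86 of 109 were lower (78.9%) and the median log2 fold was -2.81. Of those over 5000 bases, 29 of 32 were lower (90.6%, median -1.87), and of those over 2000 and up to 5000 bases 54 of 89 (60.7%). Intervals of over 1000 and up to 2000 bases went against this, with 37 of 186 lower (19.9%), 30 higher (16.1%) and a median of -0.10. Many tested intervals stood over the filter in all 3 WAGO-1 libraries but not all 3 of WAGO-3. In the class of 500 to 1000 bases these were 71 of the 109. Among those over the filter in all 6 libraries, 19 of 34 were lower in that class (55.9%), 23 of 144 from 1000 to 2000 bases (16%), 40 of 72 from 2000 to 5000 bases (55.6%) and 27 of 29 over 5000 bases (93.1%), while up to 200 bases it was 2 of 24 (8.33%, against 43% of the 79 tested). Many intervals of 1000 to 2000 bases share a length. The window of 5 bases that holds the most tested intervals over 1000 bases, 1238 to 1242 bases, had 64, of which 4 were lower and none higher (median -0.11), and the next fullest, 1609 to 1611 bases, had 26, of which 1 was lower and none higher (median -0.05). At an unadjusted p under 0.05 edgeR also gave none higher in either, with 6 and 2 lower, and DESeq2 called 0 and 1. Summed over the table, the 88 intervals of the first length took 0.751%, 0.764% and 0.810% of the counts in WAGO-1 and 0.775%, 0.747% and 0.8002% in WAGO-3, which overlap. The 28 of the second took 0.486%, 0.471% and 0.462% against 0.483%, 0.488% and 0.492%, which also overlap. Without these lengths, 96 intervals of 1000 to 2000 bases were left, of which 30 were higher (31.2%) and 32 lower (33.3%), with a median of -0.14. By contrast, all 7 tested intervals of 5615 to 5624 bases, the fullest window of 20 bases over 5000 bases, were lower (median -1.10), and they went from 0.239%, 0.241% and 0.235% of the counts to 0.0692%, 0.0785% and 0.0788%. Intervals of equal length may be copies of one repeat that share reads, so their values are uncertain one by one and may not be independent. Whether they share sequence or reads was not examined. A pair of intervals of equal length on chromosome V, 42094 bases apart and picked after their values were seen, had similar levels. The interval at 8830820 to 8833227, plus strand, had 1206, 1286 and 1248 CPM in WAGO-1 and 198, 160 and 189 CPM in WAGO-3, and the one at 8872914 to 8875321, plus strand, had a mean of 1304 CPM in WAGO-1 and of 159 CPM in WAGO-3.

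**Figure D4:**
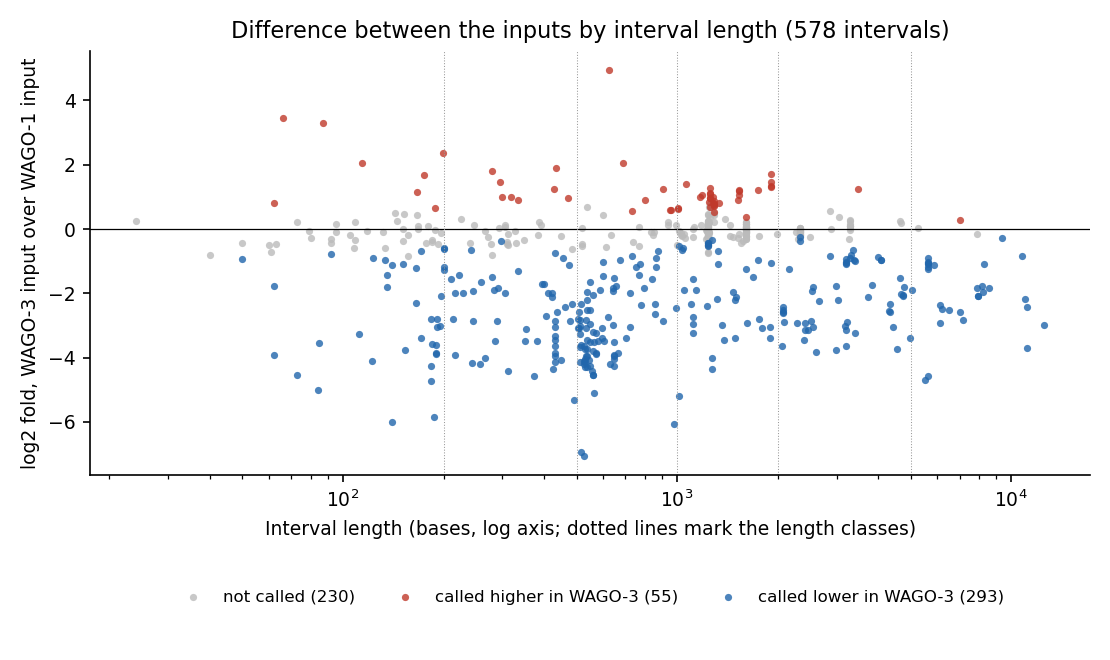
log2 fold of WAGO-3 over WAGO-1 inputs for 578 unnamed intervals by their length in bases (log axis), red where called higher (55), blue where called lower (293) and grey where not called (230). The columns of points near zero or above at 1000 to 2000 bases contrast with the blue points at 500 to 1000 bases (median -2.81) and beyond 5000 bases (median -1.87).

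F-box A genes, which encode substrate adaptors of ubiquitin ligases, were mostly lower in WAGO-3. Of them 36 of the 170 were tested, 27 lower and 1 higher, with a median log2 fold of -0.95, against 14.8% lower, 17.3% higher and a median of 0.11 over all genes tested. Of these 36, 13 stood over the filter in all 3 WAGO-1 libraries but not all 3 of WAGO-3. Among the 21 over it in all 6 libraries 15 were lower and 1 higher, against 13.1% lower and 19.1% higher of the 1502 genes over it in all 6. At fbxa-192 on chromosome V the values were 348, 450 and 424 CPM against 42.4, 29.4 and 54 CPM (-3.47 ± 0.20), and at fbxa-11 on chromosome III 482, 561 and 483 CPM against 94.2, 101 and 94.6 CPM (-2.52 ± 0.15). At fbxa-106 they were 272, 298 and 298 CPM against 28.3, 26.2 and 18 CPM (-3.68 ± 0.24). The one higher, fbxa-218, named after its value was seen, had a log2 fold of 0.72 ± 0.07. An unnamed interval within the span of fbxa-192, 17641680 to 17648678 on the minus strand, went the same way, with 2904, 2857 and 3075 CPM against 593, 517 and 500 CPM (-2.58 ± 0.08). The MATH and BATH genes, which encode further ubiquitin ligase adaptors, split into 8 lower and 4 higher of 20 tested, among them bath-21 (-2.69 ± 0.28) and, chosen after its value was seen, bath-23 (1.31 ± 0.17). Of these 20, 6 stood over the filter in all 3 WAGO-1 libraries but not all 3 of WAGO-3, and 1 the other way round. Among the 12 over it in all 6 libraries 3 were lower and 4 higher. The F-box B and C genes gave 5 lower and 3 higher of 10, and the pals genes 3 lower and 1 higher of 6, lists too small to be read against the 14.8% lower and 17.3% higher of all genes.

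Histone genes gave 12 lower and 3 higher of 25 tested, with a median of -0.53, against 14.8% lower and 17.3% higher of all genes tested. At the H2A gene his-61 the values were 381, 278 and 245 CPM against 4.71, 9.81 and 18 CPM (-4.81 ± 0.31), and at the H2A gene his-16 110, 147 and 143 CPM against 4.71, 9.81 and 13.5 CPM (-3.93 ± 0.36). The higher ones were hil-8, his-24 and his-60 (0.78 ± 0.31, adjusted p = 0.0366, named after its value was seen), of which hil-8 had 7524, 7800 and 8188 CPM against 9577, 9474 and 9218 CPM (0.14 ± 0.05). The call of his-60 was lost in 8 alternatives, among them DESeq2 (adjusted p = 0.169) and leaving out WAGO-1 replicate A or C or WAGO-3 replicate A or C (0.60 to 0.76). That of hil-8 was lost in 6, among them leaving out WAGO-1 replicate A (0.09) or B (0.12). Of the 25 tested, 12 stood over the filter in all 3 WAGO-1 libraries but not all 3 of WAGO-3. Among the 8 over it in all 6 libraries 1 was lower and 2 higher (13.1% and 19.1% of all genes over it in all 6). The summed share of the 80 histone genes was 1.48%, 1.48% and 1.49% of the counts in WAGO-1 and 1.58%, 1.65% and 1.56% in WAGO-3, higher in each WAGO-3 library. Intervals held a mean of 26.5% of the counts in WAGO-1 and 14.2% in WAGO-3, so genes as a class held more in WAGO-3. A small rise of a gene share is therefore not particular to a list. Without hil-8 and his-24, left out after their values were seen, the other 78 took 0.364%, 0.348% and 0.334% in WAGO-1 and 0.177%, 0.193% and 0.178% in WAGO-3, lower in each WAGO-3 library. Core histone genes have near-identical copies, so a read may not belong to the gene it was counted under.

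Cuticle collagen genes were called both ways, with 3 higher and 3 lower of the 7 tested of 174 (17.3% and 14.8% of all genes tested), while their summed share was 0.191%, 0.167% and 0.173% of the counts in WAGO-1 and 0.365%, 0.385% and 0.378% in WAGO-3, with no overlap. Small RNAs of col-71 stood at 300, 261 and 304 CPM in WAGO-1 and at 1328, 1515 and 1495 CPM in WAGO-3 (2.24 ± 0.09), and those of col-111 at 401, 371 and 385 CPM against 1544, 1515 and 1441 CPM (1.85 ± 0.09). The other 172 collagen genes together took 0.121%, 0.104% and 0.105% in WAGO-1 and 0.0777%, 0.0821% and 0.0842% in WAGO-3, lower in each WAGO-3 library, a split made after the values were seen. Those of col-157 were lower, with 439, 421 and 436 CPM against 184, 206 and 252 CPM (-1.13 ± 0.13). In the deletion inputs the collagen share was 0.0315% to 0.0418%. Of 15 nuclear hormone receptor genes tested, 4 were higher and 3 lower, against 17.3% and 14.8% of all genes. Of the 15, 9 stood over the filter in all 3 libraries of one strain but not all 3 of the other. Among the called ones were nhr-15, with 796, 893 and 891 CPM against 1808, 2041 and 1891 CPM (1.03 ± 0.07), and nhr-64, with 23.5 ± 9.67 CPM (SD, n = 3) against 181 ± 23.4 CPM (2.88 ± 0.27).

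Lists of germline and housekeeping functions are to be read against all genes tested, of which 17.3% were higher and 14.8% lower. Of 34 small RNA pathway genes tested, 3 were higher and 2 lower, with a median of 0.04. The higher ones were eri-6, wago-1 and the RNA interference factor gene rde-11, and the lower ones parn-1, which encodes the nuclease that trims piRNAs (1740, 1796 and 1689 CPM against 1417, 1374 and 1468 CPM, -0.42 ± 0.07), and the Piwi gene prg-1 (949, 1075 and 1088 CPM against 951, 1004 and 955 CPM, which overlap in CPM, -0.23 ± 0.08, named after its value was seen). The call of prg-1 was lost in 8 alternatives, among them DESeq2 (adjusted p = 0.0919), total feature counts (-0.11), all counted reads (-0.01) and leaving out WAGO-1 replicate B (-0.23) or C (-0.21). Of 30 germ granule and germline RNA-binding genes, meg-4 was the only lower one and 5 were higher, among them the helicase genes glh-1 (0.43 ± 0.11) and znfx-1 (0.47 ± 0.12, with no call at 0.35 without WAGO-1 replicate B) and the Pumilio-family gene puf-5 (1.27 ± 0.38). Of these 30, 8 stood over the filter in all 3 WAGO-3 libraries but not all 3 of WAGO-1, and 1 the other way round. Among the 19 over it in all 6 libraries 2 were higher and 0 lower. DESeq2 called 2 of the 30 higher and 1 lower. Of 17 kinesin, dynein and tubulin genes, 6 were higher and 1 lower in edgeR, and 2 were higher and 1 lower in DESeq2. The lower one was klp-20, a kinesin-II motor gene, with 504 ± 42.1 CPM (SD, n = 3) against 176 ± 28.1 CPM (-1.67 ± 0.13), while dhc-1, the dynein heavy chain gene, was higher at 226, 232 and 293 CPM against 124, 151 and 180 CPM in WAGO-1 (0.57 ± 0.16, with no call at 0.44 without WAGO-3 replicate C). Of 35 histone modifier and chromatin genes, 4 were higher and 1 lower, the zinc finger gene lin-13 being higher (0.85 ± 0.16) and the X-linked SET domain gene set-28 lower (-2.76 ± 0.54). Translation factor and tRNA synthetase genes gave 2 higher and 1 lower of 28, with iff-2, an eIF5A gene, at 353, 429 and 458 CPM against 819, 955 and 986 CPM (1.01 ± 0.09). Spliceosome genes gave 1 higher and 2 lower of 19, with the SR protein gene rsp-3 at 296, 340 and 309 CPM against 80, 88.3 and 54 CPM (-2.19 ± 0.18). The edgeR test called none of the 13 proteasome, 3 major sperm protein, 3 cytosolic and 4 mitochondrial ribosomal protein and 4 respiratory chain genes tested. At an unadjusted p under 0.05 it gave 1 proteasome, 1 cytosolic ribosomal and 1 respiratory chain gene, all higher, and DESeq2 called none. Of 19 spermatogenesis genes 1 was called. Of the other lists, 3 chemoreceptor-type genes gave 2 higher and 1 lower, and 5 C-type lectin genes 1 higher and 1 lower.

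Marker genes of neuron, intestine, hypodermis and pharynx carried few small RNAs, while most germline markers had enough for a test. Germline markers were tested for 8 of 10, with 3 higher (glh-1, puf-5 and rme-2, the yolk receptor gene, whose call holds in 3 of 16 alternatives) and none lower. Of these 8, 3 stood over the filter in all 3 WAGO-3 libraries but not all 3 of WAGO-1. Of the 5 over it in all 6 libraries 1 was higher. At an unadjusted p under 0.05 edgeR gave 3 higher and none lower. DESeq2 called 1 of the 8 higher and none lower. The sum of the germline markers was 0.0885% to 0.0889% of the counts in WAGO-1 and 0.0986% to 0.130% in WAGO-3, where genes as a class also held a larger share. Muscle markers summed to 0.0110% to 0.0157% and 0.00565% to 0.0121%, with mlc-1 and tnt-2 at 0 in the 6 inputs, and unc-54 was the 1 of 6 tested and was lower (-0.82 ± 0.24, with no call at -0.66 without WAGO-1 replicate B). Sperm markers, tested for 2 of 7, summed to 0.0381% to 0.0436% and 0.0383% to 0.0405% with no call, 1 being lower at an unadjusted p under 0.05 in edgeR and none called by DESeq2. None of the neuron, intestine, hypodermis and pharynx markers had enough counts for a test, and their sums were at most 0.00706% in any of the 6 inputs, with dpy-7 and tnc-2 at 0. The part of tissue make-up or stage in the differences was not tested.

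Within a strain, a few loci varied far more than the rest. At 100 CPM or more, the median coefficient of variation between the 3 libraries was 8.94% over 1161 features in WAGO-1 and 10.8% over 1179 in WAGO-3. The 2 intervals with the highest coefficient of variation each had 1 high library, WAGO-3 replicate A. On chromosome I, 13148803 to 13148917 on the minus strand, it stood at 617 CPM, with 62.2 and 81.1 CPM in B and C and 42.9, 48.3 and 61.8 CPM in WAGO-1. On the X, 17578693 to 17579127 on the minus strand, it stood at 683 CPM, with 36 and 76.6 CPM in B and C and 85.8, 34.8 and 78.7 CPM in WAGO-1. Both were called higher in WAGO-3 (2.06 ± 0.36 and 1.89 ± 0.39), but without that library the log2 folds were 0.31 and -0.28 and neither was called. The call on the X was also lost without WAGO-1 replicate B. At some genes replicate A of both strains was high. For pals-26, chosen after its values were seen, the libraries A, B and C gave 6680, 3499 and 3587 CPM in WAGO-1 and 6300, 3261 and 3314 CPM in WAGO-3, so the replicates differed and the strains gave no call (-0.19 ± 0.11, adjusted p = 0.195). With the replicate letter in the edgeR fit pals-26 was called lower (-0.22, adjusted p = 0.000127). It was also called lower without WAGO-3 replicate A (-0.56) and without WAGO-1 replicate C (-0.35), and stood at 0.12 without WAGO-1 replicate A. For smut-1, a gene of the Mutator small RNA pathway, they gave 224, 87 and 64.7 CPM and 160, 72 and 72 CPM (-0.28 ± 0.27, adjusted p = 0.484). W06A7.4 had 129, 67.7 and 39.4 CPM and 188, 68.7 and 90.1 CPM. The spermatogenesis gene spe-12 had 477, 240 and 225 CPM against 692, 442 and 815 CPM, overlapping strains that were still called apart (1.03 ± 0.14). The labels do not say what the letters stand for.

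The 10 features with the most counts, which are not compared with each other because their lengths differ, took 9.53% to 9.57% of the counts in WAGO-1 and 11.0% to 11.6% in WAGO-3, while the 100 with the most took 41.8% to 42.1% and 41.6% to 42.0%. Among them C04G2.10 had 9536, 9757 and 9709 CPM against 15100, 14848 and 14594 CPM (0.50 ± 0.05). W09C5.12 had 10971, 11296 and 11511 CPM against 11804, 12117 and 12518 CPM, which on the TMM scale was a log2 fold of -0.01 ± 0.05 (adjusted p = 0.888).

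The IPs of the same strains share no library with the inputs and recover a different protein from each strain. Input RNA was purified from the protein extract before the IP. Inputs and IPs may thus come from the same extracts, and their differences may not be independent. WAGO-3 IPs differed from WAGO-1 IPs at 7444 of 9649 features tested, 77.1%, with 3699 higher (38.3%) and 3745 lower (38.8%). Of the 525 features higher in the WAGO-3 input and tested in the IPs, 450 (85.7%) had a positive IP log2 fold, with a median of 1.47, against 60.6% of the 3178 features tested in both, whose median was 0.36. Of the 692 lower ones, 550 (79.5%) had a negative IP log2 fold, with a median of -1.26, against 39.4% of the features tested in both. Features called the same way in both numbered 950, which is 78.1% of the 1217 input calls tested in both and 35.1% of the 2706 IP calls. Over the 3178 features tested in both, the Pearson correlation of the log2 folds was 0.619, a description across features that share libraries and neighbours. One library of the WAGO-1 IPs, replicate A, stood apart from the others of its group (chi-square per degree of freedom 4.20 and 5.85 against B and C, and 1.41 between B and C), and without it the share of input calls with the same sign in the IPs was 82.7%, against 82.2% with it.

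At single loci the IPs repeated many of the input differences in sign. For sqst-1 the IP log2 fold was 2.28 ± 0.06, for ckk-1 4.63 ± 0.08, for C46G7.5 -5.05 ± 0.17 and for sosi-1 -2.41 ± 0.06. Of the X genes tested in both fits, 121 of 143 were lower in the WAGO-3 IP (84.6%), with a median of -1.78, against 637 of 2385 autosomal genes (26.7%, median 0.52). Other loci parted. The chromosome V interval from 17132108 to 17137381, with no call in the inputs, had an IP log2 fold of 1.04 ± 0.06, while its neighbour that was lower in the input had -1.12 ± 0.06. Of the 64 intervals of 1238 to 1242 bases, 63 were higher in the WAGO-3 IP with a median of 0.48, and of the 26 of 1609 to 1611 bases 25 were higher with a median of 2.01, against 51.1% higher and a median of 0.36 over the features tested in both. Of the 7 of 5615 to 5624 bases, all lower in the input, 6 were higher in the IP with a median of 1.04. Small RNAs of col-157 were lower in the WAGO-3 input and had an IP log2 fold of 0.94 ± 0.08. Whether the input and IP differences were themselves unequal was not tested.

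**Figure D5:**
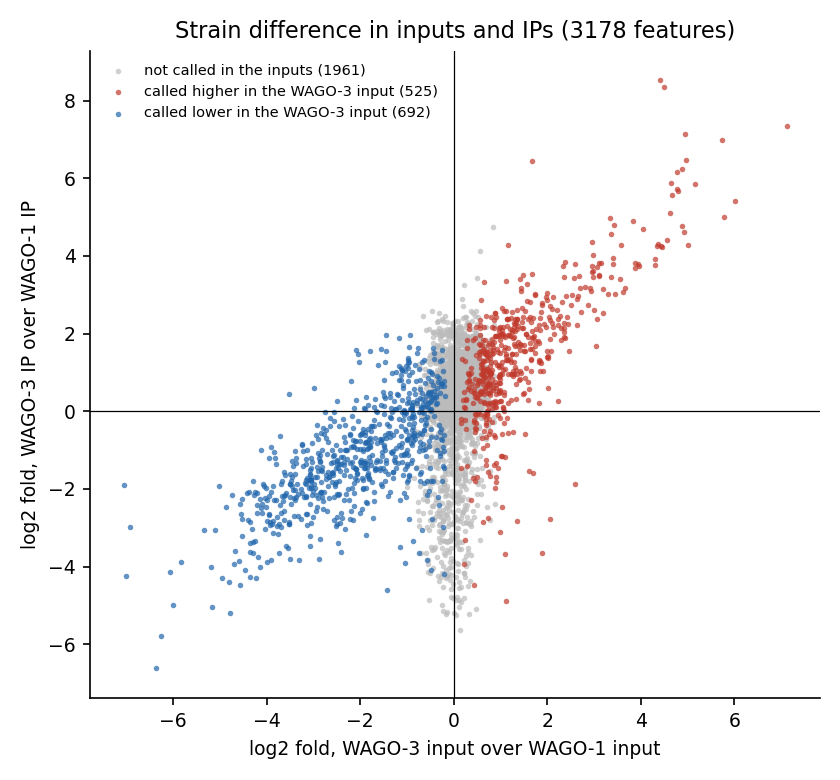
log2 fold of WAGO-3 over WAGO-1 in the inputs (horizontal) and in the IPs (vertical) for 3178 features tested in both, red where called higher in the WAGO-3 input (525), blue where called lower (692) and grey where not called. Red points lie mostly above zero on the vertical axis (450 of 525) and blue points mostly below (550 of 692), and grey points spread along the vertical axis.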

How the data were processed

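Small RNA libraries from inputs and FLAG IPs of 3 strains were sequenced. The authors deposited raw read counts per gene and per unnamed interval for all 18 libraries in one table. Per the submitters' processing notes, cutadapt 2.3, Bowtie 1.2.3, SAMtools 1.9, HTSeq 0.11.2 and build ce11 were used. For the strand setting, the annotation, multi-mapping reads and molecular identifiers, the handling is not given in the sources used. The labels' protocols say that inputs, but not IPs, went through a small RNA enrichment kit.

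From the deposited counts, edgeR 4.0.16 (R 4.3.3) was run on the 6 inputs: filterByExpr with a minimum count of 10, TMM factors, and the quasi-likelihood test with Benjamini-Hochberg adjustment over all 3323 features, called at 0.05. The IPs were fitted in the same way. Input libraries held 209731 to 517278 feature counts and IP libraries 2206087 to 5340238, so counting error is smaller in the IPs. The SE of a fold was not always smaller there, as at C46G7.5 (0.17 in the IPs, 0.16 in the inputs). HTSeq summary lines (reads in no feature among them) stayed out of library sizes. The test was checked on counts simulated with a single dispersion for all features and 200 features changed in random directions. The data hold more differences than that, mostly lower among intervals, so the check does not cover such a case. Symbols and gene positions came from the file and from a RefSeq table of the same build, and genes with a symbol shared by several IDs are left without a position. The exact permutation test was used for summed shares. Alternatives were other scalings, DESeq2 1.42.0, other filters, other sets of libraries, a replicate block, leaving out each library and, chosen after seeing the data, thinning to 209731 counts.

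The members and gene lists were chosen with earlier results of these data known, and the membership of the histone, spliceosome, kinesin/dynein/tubulin and histone modifier lists was corrected after values were seen. The text names the targeted genes, the largest folds and differences in mean CPM among called features, the most abundant features, up to 4 members of each list by smallest p, and the features with the largest spread within a strain. Ranking by fold took only called features with a mean of at least 20 CPM in the higher group and no overlap between strains. Other features are said to be chosen after their values were seen.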

Additional observations from a re-analysis of the deposited data

How the results depend on the processing

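Of the 1229 called features, 1162 were also called with total feature counts as the scaling, 1080 with all counted reads, 956 with DESeq2, 1007 with no filter on low counts, 720 with a minimum count of 30 and 1004 with libraries thinned to one depth, an alternative chosen after seeing the data. The number called fell to 802 with a minimum count of 30, with 397 lower, because fewer features were tested, and DESeq2 called 353 higher. Leaving out one library gave 1062 to 1295 called. The letters A, B and C may pair the input samples weakly, and pairing is not excluded. Correlations of deviations were 0.0288 to 0.0367 for same letters and -0.0304 to 0.00115 for different letters. Each library correlated best with that of its own letter. A replicate block gave 1226 called, 1203 of them shared. Among the features named, pals-26 was called under the block (-0.22, adjusted p = 0.000127) and rme-2 was not (0.69).

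The percent of X genes called lower, 62.6, was 53.1 with all counted reads, 8.31 with no filter and 21.8 with all 18 libraries, where many more low genes are tested, and 58.9 to 64.2 with one library left out. For autosomal genes, 10.9 became 9.2 with total counts, 7.25 with all counted reads, 8.68 with DESeq2, 2.37 with no filter, 20.3 with a minimum count of 30, 8.65 with 9 inputs, 3.25 with 18 libraries and 8.65 to 11.3 with one library left out. For all genes, 14.8 became 12.7, 10.5, 12.1, 3.30, 24.4, 11.6 and 4.81 in the same order, and 12.1 to 15.3. For intervals, 50.7 became 46 with all counted reads, 4.51 with no filter, 58.9 with a minimum count of 30 and 25.7 with 18 libraries. In each of these settings X genes and intervals had a larger percent lower than autosomal genes. The difference in the share of the 100 most abundant features, -0.04 points, ran from -0.12 to 0.07 with one library left out.

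Of the 90 called features followed through up to 17 alternatives, 15 lost the call in at least one. Not every feature was tested in every alternative, and one left untested was not counted as a lost call. wago-1, puf-5 and spe-12 lost it with DESeq2 (adjusted p = 0.247 for wago-1), parn-1 and Y17D7B.4 with all counted reads, rde-11 with no filter, hil-8 in 6 alternatives, his-60 and prg-1 in 8, rme-2 in 13, unc-54 in 3 and znfx-1 and dhc-1 in 1. The intervals that WAGO-3 replicate A decides lost it with DESeq2 too. Features near zero changed sign: ppw-2 to 0.08 with total counts, 0.18 with all counted reads and 0.06 with a minimum count of 30 or 18 libraries (-0.15 to 0.04 with one library left out), W09C5.12 to 0.11, 0.21, 0.09 and 0.09 (-0.05 to 0), the chromosome V interval from 17132108 to -0.01 with no filter or 9 inputs (-0.01 to 0.04), and pals-26 to 0.01 with all counted reads. With one library left out, pals-26 ran from -0.56 to 0.12, smut-1 from -0.69 to 0.19 and the X interval from 17578693 from -0.28 to 2.53. The cause was not tested. Depth limits low features: 3 counts over a group correspond to 2.77 CPM in WAGO-1, 4.05 CPM in WAGO-3 and 9.21 CPM in the dpf-3 deletion inputs.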
